A study of Mus musculus with 2 samples.

Results

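Interferon-stimulated antiviral genes were followed across 5 cell classes of mouse subcutaneous tumours, to see which of them were lower in T cells but higher in tumour cells and which cells held the interferon gene Ifnb1. The set was given as a list of 36 gene symbols, and 35 of them had a row among the 32285 genes of both deposited matrices. Of these, 34 are genes that interferon switches on, and the remaining member, Ifnb1, encodes interferon beta itself. Mx2 was not analysed here. The members were selected on earlier UMI sums of such genes per cell class and diet in these same libraries, so its counts and medians are given as descriptions and support nothing by themselves.

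There were 2 libraries, 1 per diet. The first came from subcutaneous tumours of mice on a serine/glycine-free (-SG) diet, and the second from tumours of mice on a control diet. All animals carried such tumours, and the labels used here give no strain, age, tumour line or number of mice per library. Each library paired 10x Genomics gene expression with T cell receptor (TCR) contigs. With a single library per diet there was no replicate error and no test between diets. Every interval below is a 95% interval for counting error only, and the diet cannot be told apart from the library.

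Cells that sense foreign nucleic acid release type I interferons such as interferon beta. These bind the receptor formed by Ifnar1 and Ifnar2, and a transcription factor complex that holds Stat2 and Irf9 then binds the interferon-stimulated response element of its target genes. The products detect viral RNA and DNA, bind or cut foreign RNA, stop translation, change membranes against viral entry and exit, or feed back on the signal. In tumours, type I interferon made by macrophages and dendritic cells is known to act on T cells, NK cells and the tumour cells themselves.

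The -SG library held 7999 barcodes and 157234945 UMIs (unique molecular identifiers, each standing for 1 captured RNA molecule), against 8466 barcodes and 161332426 UMIs in the control library. Filters on gene number and mitochondrial share kept 7913 and 8262 cells of the -SG and control libraries. In all, 104 barcodes occurred in both libraries. Doublets were not removed for the main results, because the doublet caller marked 0 cells in the -SG library and 2 cells in the control library. Leaving out the 145 -SG and 159 control cells with a doublet score over 0.25 was run as an alternative. The labels' extraction protocol speaks of human heart tissue, although mouse is the stated organism, tumour the stated source, and the matrices carry mouse symbols.

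Cells were placed by a few genes each. CD8 and CD4 T cells had a TCR beta (TRB) contig and more Cd8a and Cd8b1 than Cd4 UMIs, or the reverse. NK cells had an Ncr1 UMI and no contig, macrophages had at least 0.1% of their UMIs from C1qa, C1qb and C1qc and no Krt20, and tumour cells had a Krt20 UMI and no Ptprc. This gave 166 CD8 T cells (median 8182 UMIs) in the -SG library and 69 (median 3810) in the control library. There were 32 and 56 CD4 T cells, 147 and 17 NK cells, 632 and 694 macrophages, and 4613 and 4121 tumour cells in the -SG and control libraries. Their median depths were 3242 and 2848 UMIs for CD4 T cells, 6245 and 11056 for NK cells, 10472 and 9585 for macrophages, and 23206 and 25087 for tumour cells. No class took 2334 of the -SG cells and 3308 of the control cells, and 11 and 3 cells met more than 1 definition.

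The classes were checked against markers. T cell markers summed to 3252 CPM in the -SG CD8 sum and 2791 CPM in the control CD8 sum, where CPM scales the UMIs of a class, without the 660 receptor genes, to a common total. In macrophages the same 7 markers reached 10.5 CPM in the -SG library and 7.32 CPM in the control library. The Krt20-positive class carried Krt20 at 248 CPM (-SG) and 158 CPM (control) and Krt18 at 19.6 and 24.1 CPM. Its other epithelial markers Krt8, Krt7 and Epcam were all under 1 CPM, so the name tumour cell rests on Krt20 and on the absence of Ptprc. Fibroblast markers summed to 714 CPM in the -SG tumour class and 479 CPM in the control tumour class, and their part in the results was not tested.

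Members were lower in the -SG library in CD8 T cells, higher in NK cells and tumour cells, split in CD4 T cells, and close to equal in macrophages except for a small group. A member counted as measured in a class where it averaged 20 CPM or more over the libraries and had 10 or more UMIs in all. It counted as higher or lower where the log2 ratio of -SG over control, computed on CPM plus 5, passed 1.5-fold, or 1.2-fold in the deeply covered tumour cells. In CD8 T cells 21 of 28 measured members were lower and 0 higher, against 10.4% lower and 7.52% higher over all 5931 genes measured there. Their median log2 ratio was -0.80, beside -0.05 for all genes.

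In tumour cells 18 of 22 measured members were higher and 0 lower, where 7.16% of all 5463 measured genes were higher and 15.5% lower. The median log2 ratio was 0.44 for the members and -0.09 for all genes. In NK cells 20 of 27 were higher and 1 lower (16.8% and 11.8% of all genes), with a median of 1.10 beside 0.02. In CD4 T cells 10 of 27 were lower and 4 higher (16.5% and 12.9% of all genes), and the median was -0.49 beside -0.01. In macrophages 6 of 31 were higher and 0 lower (2.15% and 1.43% of all genes), with a median of -0.02 beside -0.10.

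**Figure D1:**
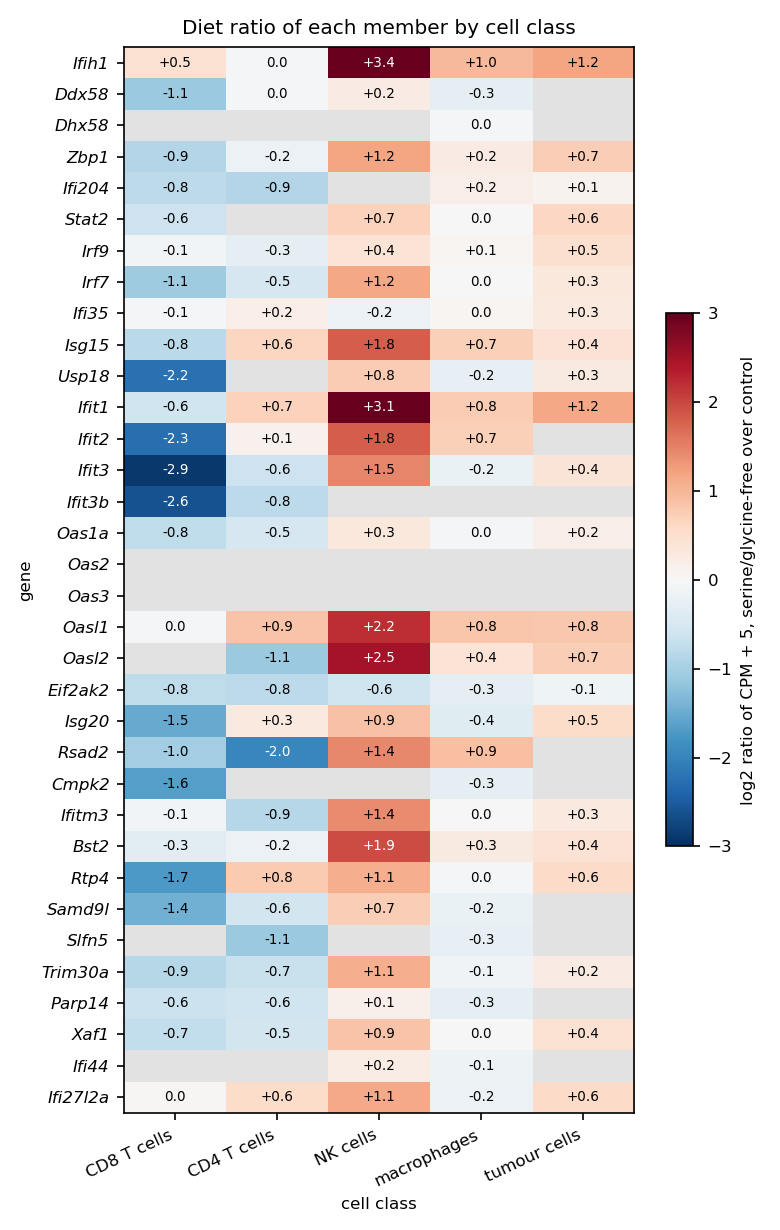
Log2 ratio of -SG over control (CPM plus 5) for each member (rows) in each of the 5 cell classes (columns), with red for higher and blue for lower in the -SG library and grey where a member was not measured. The CD8 T column is mostly blue and the NK and tumour columns mostly red; Oas2 and Oas3 were measured in no class.

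Summed over 31 members, leaving out the abundant Ifitm3, Bst2 and Ifi27l2a, CD8 T cells held 1317 CPM in the -SG library and 2683 CPM in the control library, which makes a ratio of 0.491 (0.459 to 0.526). Tumour cells held 1215 CPM (-SG) and 819 CPM (control), a ratio of 1.48 (1.47 to 1.495). NK cells held 2060 CPM (-SG) and 824 CPM (control), a ratio of 2.50 (2.19 to 2.86). Control CD8 T cells thus carried more of these transcripts, relative to their total, than control tumour cells, whereas in the -SG library both classes were near the same level. The ratio was 1.27 (1.24 to 1.29) in macrophages, at 3456 CPM (-SG) and 2728 CPM (control). It was 1.01 (0.911 to 1.13) in CD4 T cells, at 1971 and 1944 CPM. In such sums, a smaller share of responding cells and less RNA per responding cell cannot be told apart, and single cells are described further on.

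Of the members, 5 sense foreign nucleic acid, and their diet ratios differed widely between classes. Ifih1, which encodes the double-stranded RNA sensor MDA5, was at 71.9 CPM in -SG tumour cells and 28.7 CPM in control tumour cells, the highest log2 ratio of any member measured there (1.19). It also led the NK cells at 117 CPM (-SG) against 6.70 CPM (control), although the control value rests on 2 UMIs and the ratio of 17.4 has an interval of 4.75 to 145. In macrophages it was at 224 CPM (-SG) and 111 CPM (control). Ifih1 was also the member with the highest log2 ratio in CD8 T cells (0.46), at 97.7 CPM (-SG) and 69.8 CPM (control), where the ratio of 1.4 has an interval of 0.963 to 2.09. Of the 185 Ifih1 UMIs in -SG CD8 T cells, 98 came from the 62 cells of the largest clone, which share a TRB chain, at 155 CPM. Other repeated -SG clones held Ifih1 at 67.6 CPM, and -SG cells with a chain of their own at 79.9 CPM. In CD4 T cells Ifih1 was at 109 CPM (-SG) and 110 CPM (control).

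The other sensors measured in CD8 T cells were lower there, unlike Ifih1. Ddx58, which encodes the RNA sensor RIG-I, was at 30.6 CPM in -SG CD8 T cells and 71.9 CPM in control CD8 T cells (log2 ratio -1.11). In CD4 T cells, NK cells and macrophages its log2 ratio lay between -0.26 and 0.25, within 1.5-fold. Zbp1, a sensor of Z-form nucleic acid, was at 72.4 CPM in -SG CD8 T cells and 137 CPM in control CD8 T cells. In tumour cells it was on the other side of 0, with 85.1 CPM (-SG) and 48.9 CPM (control), a log2 ratio of 0.74. In NK cells Zbp1 was also higher, at 106 CPM (-SG) and 43.6 CPM (control), a log2 ratio of 1.19 with 13 control UMIs. Ifi204, a DNA sensor of the HIN-200 family, was lower in both T cell classes (log2 ratios of -0.79 in CD8 and -0.87 in CD4 T cells), and within 1.2-fold in tumour cells (0.11). These T cell values rest on 26 UMIs (-SG) and 13 UMIs (control) in CD8 and on 5 and 17 UMIs in CD4 T cells. Dhx58, which encodes the RIG-I-like protein LGP2, was measured only in macrophages, at 39.0 CPM (-SG) and 40.3 CPM (control).

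Of the 4 members that pass on the signal or act as transcription factors, all 4 were higher in tumour cells, with log2 ratios of 0.30 to 0.61. Stat2, a subunit of the factor that type I interferon activates, was at 30.3 CPM in -SG tumour cells and 18.1 CPM in control tumour cells. In CD8 T cells it was at 30.1 CPM (-SG) and 48.6 CPM (control), a ratio of 0.619 whose interval of 0.375 to 1.05 includes 1. Irf7, the factor that amplifies interferon transcription, was at 74.9 CPM (-SG) and 59.1 CPM (control) in tumour cells. It was at 71.8 CPM (-SG) and 156 CPM (control) in CD8 T cells (log2 ratio -1.07), and at 112 and 46.9 CPM in NK cells. Irf9, the DNA-binding partner of Stat2, and Ifi35 stayed within 1.5-fold in CD8 T cells, at log2 ratios of -0.07 and -0.06.

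Isg15, a ubiquitin-like modifier, and Usp18, the protease that removes it and also restrains the interferon receptor, are members with feedback roles. Isg15 was at 354 CPM in -SG CD8 T cells and 620 CPM in control CD8 T cells, a ratio of 0.572 (0.498 to 0.658). In every other class it was higher in the -SG library, with log2 ratios of 0.64 in CD4 T cells, 1.82 in NK cells, 0.70 in macrophages and 0.43 in tumour cells. Usp18 was at 15.3 CPM in -SG CD8 T cells and 90.9 CPM in control CD8 T cells, a ratio of 0.168 (0.101 to 0.276). In tumour cells Usp18 was at 26.7 CPM (-SG) and 21.2 CPM (control).

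The RNA-binding effectors hold the members with the lowest ratios in CD8 T cells. Ifit3, which binds and stabilises the RNA-capping sensor Ifit1 in human cells, was at 14.3 CPM in -SG CD8 T cells and 137 CPM in control CD8 T cells, a ratio of 0.104 (0.064 to 0.165) and the lowest log2 ratio of all (-2.89). Ifit3b was at 5.81 CPM (-SG) and 61.3 CPM (control), and Ifit2, another RNA-binding family member, at 17.96 and 106 CPM. In CD4 T cells Ifit3b was also lower, at a log2 ratio of -0.78 on 4 (-SG) and 13 (control) UMIs. Ifit3 and Ifit3b are close copies, and how reads that match both were counted is not given in the sources used here. Ifit1, which binds RNA that lacks a host cap, was less lowered at 95.6 CPM (-SG) and 148 CPM (control), and in the -SG CD8 sum a single cell gave 37 of its 181 UMIs.

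Outside CD8 T cells, Ifit1 was higher in all 4 remaining classes. It was at 66.9 CPM in -SG tumour cells and 27.2 CPM in control tumour cells (log2 ratio 1.16), next to Ifih1 the highest there. In NK cells it was at 158 CPM (-SG) and 13.4 CPM (control), the control value resting on 4 UMIs. In macrophages it was at 102 and 57.5 CPM and in CD4 T cells at 228 and 140 CPM in the -SG and control libraries. Ifit3 was at 23.7 CPM (-SG) and 16.9 CPM (control) in tumour cells, at 63.1 and 73.8 CPM in macrophages, and at 24.5 and 40.3 CPM in CD4 T cells, the last on 7 and 19 UMIs.

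The Oas family makes a short RNA messenger that activates RNase L, whereas Oasl1, which lacks that activity, binds RNA. Oasl1 was within 1.5-fold in CD8 T cells (32.7 CPM in -SG and 33.8 CPM in control cells) and higher in the other 4 classes, with log2 ratios of 0.81 in tumour cells, 0.82 in macrophages, 2.21 in NK cells and 0.85 in CD4 T cells. The CD4 value rests on 11 UMIs from 3 -SG cells and 9 UMIs from 5 control cells, and with every cell weighted alike its log2 ratio was -0.78. Oasl2 was at 57.9 CPM (-SG) and 33.0 CPM (control) in tumour cells, and at 42.3 and 3.35 CPM in NK cells, where the control held 1 UMI. In CD4 T cells Oasl2 was lower, at 14.0 CPM (-SG) and 36.1 CPM (control), on 4 and 17 UMIs. Oas1a, which makes the messenger, was at 19.0 CPM (-SG) and 35.9 CPM (control) in CD8 T cells, and within 1.2-fold in tumour cells.

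Eif2ak2 encodes PKR, the kinase that stops translation on double-stranded RNA, and it was the only measured member below 0 in tumour cells. It stood there at 25.9 CPM (-SG) and 29.0 CPM (control), a ratio of 0.893 (0.849 to 0.939). It was also the only member lower in NK cells, at 27.1 CPM (-SG) and 43.6 CPM (control), on 43 and 13 UMIs. In CD4 T cells Eif2ak2 was lower too, at a log2 ratio of -0.78 on 4 (-SG) and 13 (control) UMIs. Isg20, an exonuclease that degrades RNA, was at 40.1 CPM (-SG) and 125 CPM (control) in CD8 T cells and at 42.2 and 27.4 CPM in tumour cells.

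Among effectors on nucleotides, membranes and entry, Rtp4, a chaperone-like protein that binds viral RNA, was at 41.2 CPM in -SG CD8 T cells and 148 CPM in control CD8 T cells, a ratio of 0.278 (0.199 to 0.390). In tumour cells it was at 54.1 CPM (-SG) and 35.0 CPM (control), and in CD4 T cells it was also higher (87.5 and 48.8 CPM). Rsad2, which encodes viperin, the enzyme that makes a chain-terminating nucleotide, was at 26.4 CPM (-SG) and 59.2 CPM (control) in CD8 T cells. CD4 T cells had 3 of its UMIs in the -SG and 26 in the control library (log2 ratio -1.96). Of those 26 UMIs, 19 came from a single cell. In macrophages Rsad2 was higher, at 224 CPM (-SG) and 117 CPM (control). Its genomic neighbour Cmpk2, a mitochondrial nucleotide kinase, was at 7.39 CPM (-SG) and 33.8 CPM (control) in CD8 T cells.

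The abundant membrane proteins differed less in CD8 T cells. Ifitm3, which blocks fusion of viruses in endosomes, was at 1137 CPM (-SG) and 1209 CPM (control) in CD8 T cells and at 2144 and 1744 CPM in tumour cells. In CD4 T cells it was lower, at 847 CPM (-SG) and 1547 CPM (control), a ratio of 0.547 (0.471 to 0.634). There a single cell gave 116 of the 242 -SG UMIs, and another 150 of the 729 control UMIs. The CD8 sums hide a difference between cells, since a single control cell gave 164 of the 572 control UMIs. An Ifitm3 UMI was present in 65.7% of -SG and 30.4% of control CD8 T cells, or 44.5% and 24.6% of cells thinned to 1000 UMIs. Among Pdcd1-positive CD8 T cells Ifitm3 was at 1079 CPM (-SG) and 332 CPM (control). Bst2, the tetherin that holds budding virus on the cell surface, was at 389 CPM (-SG) and 495 CPM (control) in CD8 T cells. It was at 690 CPM (-SG) and 511 CPM (control) in tumour cells and at 545 and 137 CPM in NK cells.

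Of the 7 remaining members, Samd9l, a restrictor of translation, was at 28.0 CPM (-SG) and 84.6 CPM (control) in CD8 T cells. Trim30a, Xaf1 and the ADP-ribosyltransferase gene Parp14 were lower there too, with log2 ratios of -0.85, -0.73 and -0.65. Xaf1, a pro-apoptotic protein, was at 51.2 CPM (-SG) and 36.2 CPM (control) in tumour cells. Slfn5, of the Schlafen family, was at 14.0 CPM (-SG) and 36.1 CPM (control) in CD4 T cells, on 4 and 17 UMIs. Ifi27l2a was within 1.5-fold in both T cell classes and higher in tumour cells, at 735 CPM (-SG) and 491 CPM (control). Ifi44 was measured only in NK cells and macrophages and stayed within 1.5-fold in both.

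Only Ifit3 was lower in both T cell classes and higher in tumour cells, among 19 members measured in all 3 classes. Over all 4524 genes measured there, 8 met the same rule (0.177%). The CD4 part of this call did not hold among CD4 T cells without any C1q or Krt20 UMI, where Ifit3 had a log2 ratio of 0.20. With CD8 T cells alone set against tumour cells, 10 of 21 members were lower in CD8 T cells and higher in tumour cells: Ifit1, Ifit3, Isg15, Usp18, Irf7, Stat2, Zbp1, Xaf1, Rtp4 and Isg20. Over all genes 37 of 4731 did so (0.782%). All 10 were also higher in the summed NK cells. In CD4 T cells Ifit1, Isg15 and Rtp4 were higher, and Irf7, Zbp1, Xaf1 and Isg20 stayed within 1.5-fold.

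**Figure D2:**
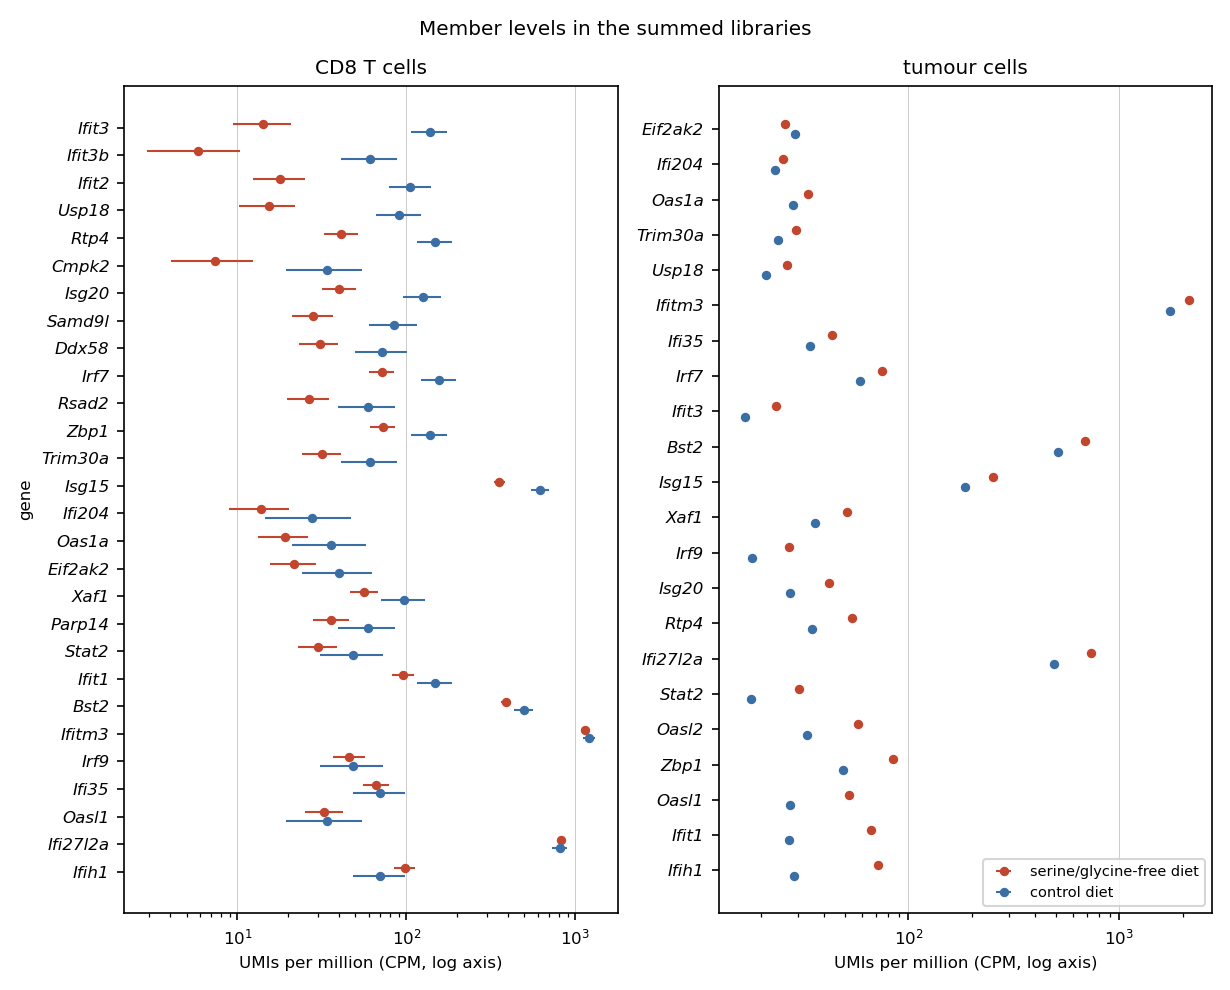
CPM (log axis) of each member measured in CD8 T cells (left) and tumour cells (right), with 1 point for the -SG library and 1 for the control library and bars for exact 95% Poisson intervals, which are smaller than the points in tumour cells. In CD8 T cells the control points of Ifit3, Ifit2, Usp18 and Rtp4 lie far to the right of the -SG points, and in tumour cells most -SG points lie to the right of the control points.

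The DNA in front of these genes was compared because members of such a set are known to share the interferon-stimulated response element. The search used RefSeq windows of 300 bases (250 before and 50 after the transcription start, build GRCm38.p6), which 26 of the 35 listed genes other than Ifnb1 had. Its core, GAAA, any 2 bases and GAAA again, read on either strand (so also TTTC, any 2 bases and TTTC), was present in a window of 15 of these 26 genes (57.7%), against 3.99% of all 27025 genes with a window. Over windows rather than genes the shares were 51.6% of 31 and 3.44% of 32851. In CD8 T cells the median log2 ratio was -0.77 over 13 measured members with it and -1.07 over 9 without it, and in tumour cells 0.41 over 10 and 0.48 over 7.

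Windows of 3 members that were lower in CD8 T cells and higher in tumour cells are shown, with matches of the core in capitals and overlapping matches running together. Ifit3 and Ifit1 each hold 2 separate matches on the minus strand of the window, and Isg15 holds 3 matches on its plus strand, which overlap in part. They are followed by Ifnb1, whose window holds no match of the core. Its capitals mark AANTGAAA, present from 139 and from 126 bases before the start, and GGGAA joined directly to ATTCC from 116 bases before it, letters found in interferon regulatory factor and NF-kB sites.
Ifit3 (chr19:34583279-34583578, plus strand): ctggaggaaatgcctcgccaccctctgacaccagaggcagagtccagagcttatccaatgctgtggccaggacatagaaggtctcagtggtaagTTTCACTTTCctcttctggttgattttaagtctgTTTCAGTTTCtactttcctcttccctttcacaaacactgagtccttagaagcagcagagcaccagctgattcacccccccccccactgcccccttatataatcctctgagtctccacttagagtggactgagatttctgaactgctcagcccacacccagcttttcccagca
Ifit1 (chr19:34640639-34640938, plus strand): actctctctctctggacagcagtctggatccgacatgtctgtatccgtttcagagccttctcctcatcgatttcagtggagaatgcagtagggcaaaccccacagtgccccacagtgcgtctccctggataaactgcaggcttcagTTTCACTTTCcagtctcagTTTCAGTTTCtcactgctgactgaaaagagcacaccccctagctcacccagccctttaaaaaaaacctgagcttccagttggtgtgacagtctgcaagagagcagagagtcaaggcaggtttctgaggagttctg
Isg15 (chr4:156200769-156201068, minus strand): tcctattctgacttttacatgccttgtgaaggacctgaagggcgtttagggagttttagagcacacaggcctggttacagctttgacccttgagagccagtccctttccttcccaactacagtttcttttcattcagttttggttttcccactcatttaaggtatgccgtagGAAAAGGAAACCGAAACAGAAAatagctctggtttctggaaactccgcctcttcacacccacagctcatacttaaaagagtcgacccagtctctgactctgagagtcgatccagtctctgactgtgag
Ifnb1 (chr4:88522745-88523044, minus strand): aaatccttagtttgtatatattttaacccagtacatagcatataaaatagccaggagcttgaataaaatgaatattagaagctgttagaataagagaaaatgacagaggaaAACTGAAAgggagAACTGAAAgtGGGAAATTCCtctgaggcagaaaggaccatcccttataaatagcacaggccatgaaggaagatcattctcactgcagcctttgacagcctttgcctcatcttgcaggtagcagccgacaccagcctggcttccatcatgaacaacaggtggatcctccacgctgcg

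AANTGAAA (TTTCANTT on the other strand) is in 6.58% of all windows and the 10 letters of the NF-kB-type motif, read on either strand, in 0.110%. A match describes the letters only. The windows of Ifit3 and Ifit3b start at bases 34583279 and 34607707 of chromosome 19. They are 75% identical over 268 bases when set against each other at a shift of 32 bases, and both hold 2 matches of the core. Ifit2, on the same chromosome, holds none in either of its windows, although its ratio in CD8 T cells was among the lowest.

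In single cells the summed level of the 31 members was spread widely in every class. The median -SG CD8 T cell held 1032 CPM of these members and the median control CD8 T cell 2759 CPM. The top 10% of cells began at 3276 CPM in the -SG library and 10804 CPM in the control library, so the -SG distribution was lower at its middle and at its top. At the low end the order was the other way, and the lowest 10% of cells ended at 334 CPM in the -SG and 245 CPM in the control library. In tumour cells the median cell held 786 CPM (-SG) and 453 CPM (control), and the top 10% began at 3489 and 2157 CPM. The tumour cells of both libraries thus overlapped over most of their range, with the -SG cells higher at each of these points.

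**Figure D3:**
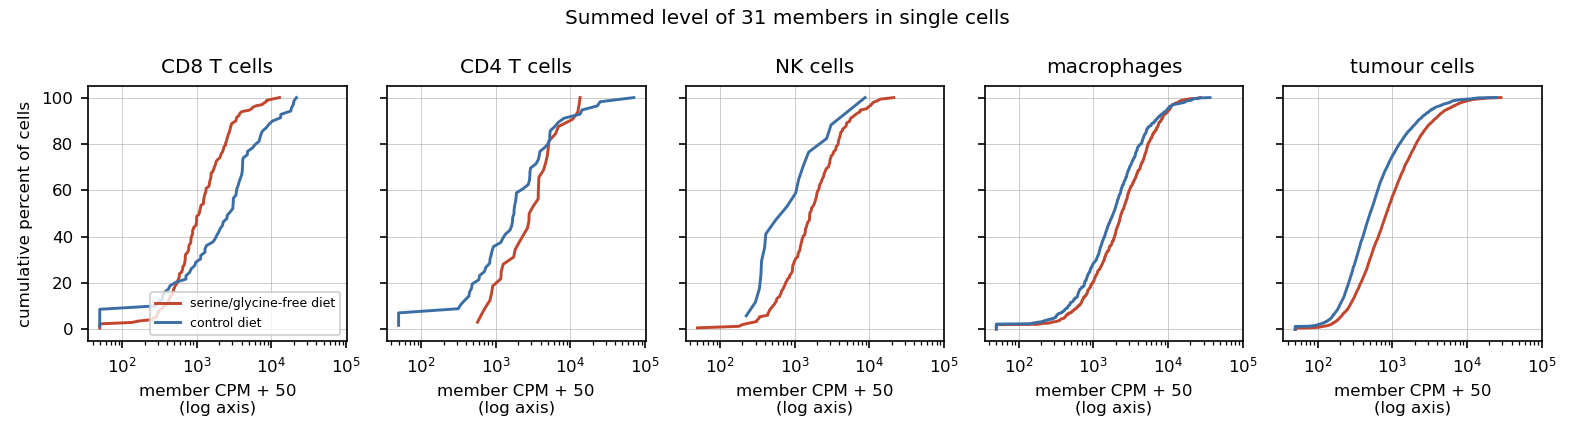
Cumulative percent of cells (vertical axis) against the summed CPM of 31 members plus 50 (log axis), with 1 panel for each cell class and 1 line for each library. In CD8 T cells the lines cross at the low end and the -SG line lies left of the control line at the middle and the top (medians of 1032 and 2759 CPM), whereas in tumour cells its median lies to the right (786 and 453 CPM).

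Because depth differed, each cell was also thinned to 1000 UMIs, which left out 2 of 166 -SG and 4 of 69 control CD8 T cells and 2 tumour cells in each library. At least 1 UMI of the 31 members was then present in 63.4% of -SG CD8 T cells (55.5% to 70.8%) and 78.5% of control CD8 T cells (66.5% to 87.7%). The share with 5 or more such UMIs was 9.76% and 33.8%. In tumour cells the shares with at least 1 were 57.7% (56.2% to 59.1%) in the -SG library and 43.7% (42.2% to 45.2%) in the control library. Thinning thus kept the direction in both classes.

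In NK cells the thinned shares with at least 1 UMI were 80.3% (72.9% to 86.4%) in the -SG library and 58.8% (32.9% to 81.6%) in the control library, intervals that overlap. The NK shares with 5 or more such UMIs were close to equal, at 17.69% (-SG) and 17.65% (control). For CD4 T cells the shares with at least 1 UMI were 90.3% (74.2% to 98.0%) in the -SG and 77.8% (64.4% to 88.0%) in the control library. In macrophages the shares with at least 1 UMI were 80.5% (77.1% to 83.5%) and 76.4% (73.0% to 79.6%). Isg15 was seen in 28.0% of thinned -SG CD8 T cells and 49.2% of thinned control CD8 T cells, and in 20.6% and 15% of thinned tumour cells. Without thinning it was seen in 65.1% of -SG and 69.6% of control CD8 T cells and in 80.3% and 75.3% of tumour cells, at their unequal depths.

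The CD8 T cells of the diets also differed in their clones, as read from the TRB chain. A single clone made up 62 of 166 -SG CD8 T cells, and 23 cells had a chain seen in no other CD8 T cell. In the control library the largest clones held 4 of 69 cells and 44 cells had a chain of their own. The 31 members summed to 1372 CPM (1282 to 1466) in the large -SG clone, 1174 CPM (1111 to 1239) in other repeated -SG clones, and 2144 CPM (1916 to 2391) in -SG cells with a chain of their own. Control cells with a chain of their own held 2652 CPM (2484 to 2827). The order differed in the control library, where other repeated clones held 3217 CPM (2851 to 3617) and the largest clone 1622 CPM (1218 to 2116), on 21 and 4 cells. Repeated clones thus carried less of these transcripts, relative to their total, than single-chain cells in the -SG library, but not throughout in the control library.

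With single-chain cells compared with each other, 13 of 29 measured members were lower and 2 higher (18% and 19.2% of all genes), and the median log2 ratio was -0.44 in place of -0.80. Ifit3 (26.6 CPM in -SG and 142 CPM in control cells) and Usp18 (13.3 and 93.6 CPM) stayed lower, on 4 and 2 UMIs in the -SG cells. Ifit1 turned to higher, at 266 CPM (190 to 363) in -SG and 162 CPM (122 to 209) in control cells, and Rsad2 turned to higher at a log2 ratio of 1.14. Isg15 was then close to equal at 612 CPM (-SG) and 630 CPM (control), as was Zbp1 at 133 CPM in both, so neither was lower among these cells. This comparison rests on 23 -SG and 44 control cells.

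CD8 T cells were also divided by Pdcd1, the gene of the checkpoint receptor PD-1. In -SG cells the 31 members summed to 1234 CPM (1182 to 1288) in 143 cells with a Pdcd1 UMI and 2025 CPM (1832 to 2233) in 23 cells without one. In control cells they summed to 2924 CPM (2619 to 3254) in 21 cells with Pdcd1 and 2606 CPM (2442 to 2779) in 48 cells without. Among Pdcd1-positive cells alone the median log2 ratio was -1.15, with 19 of 28 members lower and 1 higher (24.6% and 15.4% of all genes).

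Transcripts of other cells were present in the T cell sums. The 9 macrophage markers summed to 508 CPM in the -SG CD8 sum and 2267 CPM in the control CD8 sum, with no marker at 0 in either. Among CD8 T cells without any C1q or Krt20 UMI (136 -SG and 63 control cells) the members had a median log2 ratio of -1.11, with 23 of 28 lower and 1 higher (15.5% and 11% of all genes). The same restriction of CD4 T cells (28 -SG and 46 control cells) gave a median of 0.41, with 4 of 25 lower and 9 higher, where 23.5% of all genes were lower and 24.3% higher. The direction of the CD4 median thus depended on this choice of cells. Haemoglobin transcripts were at 0 CPM in the -SG CD4 sum and 2511 CPM in the control CD4 sum, and without the cells that held them the CD4 median was -0.44.

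The NK result rested on 17 control cells. The 9 macrophage markers summed to 731 CPM in -SG NK cells and 20.1 CPM in control NK cells, where C1qa, C1qb, Apoe and Adgre1 were at 0, and their part in the result was not tested. With every cell weighted alike, the NK median log2 ratio was 0.33, with 11 of 28 members higher and 6 lower (18.3% and 16.6% of all genes), and Ifit3, Rsad2, Usp18 and Rtp4 turned below 0. Without cells that held Cd3d, Cd3e or Cd3g, the median was 1.30 with 21 of 27 higher and 1 lower (18.4% and 13.5% of all genes), over 116 -SG and 12 control cells.

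Macrophages held the larger share of Ifnb1 UMIs in both libraries, but fewer than 1 in 2 of the positive control cells. In the -SG library 125 of 7913 cells held 880 UMIs of it, and in the control library 48 of 8262 cells held 217 UMIs. Macrophages gave 79 of the -SG and 20 of the control cells, and 72.0% and 51.2% of the UMIs. The share of macrophages with an Ifnb1 UMI was 12.5% (10.0% to 15.3%) in the -SG library and 2.88% (1.77% to 4.42%) in the control library. The ratio of these shares was 4.34 (2.63 to 7.48). Counted as UMIs, macrophages held 89.9 CPM (-SG) and 15.3 CPM (control), a ratio of 5.86 (4.78 to 7.24).

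These molecules were unevenly spread over the positive macrophages. The median positive macrophage held 5 UMIs in the -SG library and 4.5 UMIs in the control library, and the highest held 83 and 19. The 10 highest cells gave 44.2% of macrophage Ifnb1 UMIs in the -SG library and 82.0% in the control library. Without the highest cell of each library the CPM ratio was 6.15 (4.92 to 7.75). Median depth was 12723 UMIs in positive and 10144 in negative -SG macrophages, and 11014 in positive and 9440 in negative control macrophages.

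**Figure D4:**
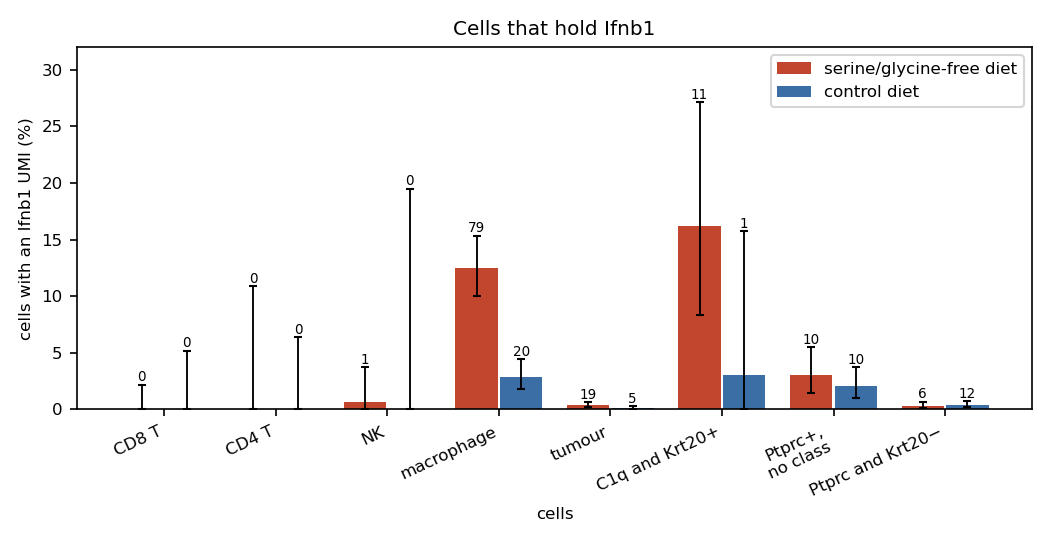
Percent of cells with at least 1 Ifnb1 UMI in each group of cells, with 1 bar for the -SG and 1 for the control library and exact 95% binomial intervals. Macrophages reach 12.5% in the -SG library and 2.88% in the control library, and cells with both C1q and Krt20 UMIs reach 16.2% and 3.03% with wide intervals.

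In the other classes few cells held Ifnb1. No T cell had an Ifnb1 UMI, with 0 of 166 CD8 and 0 of 32 CD4 T cells in the -SG library, where 3 counts would be shares of 1.81% and 9.38%. In the control library it was 0 of 69 and 0 of 56, where 3 counts would be 4.35% and 5.36%. These values limit cells with an Ifnb1 UMI and not cells that express the gene, since T cells were sequenced at lower median depths than macrophages. Among tumour cells 19 of 4613 (0.412%) were positive in the -SG library and 5 of 4121 (0.121%) in the control library, which makes a ratio of 3.39 (1.23 to 11.6), at a median depth above that of macrophages. The tumour definition did not exclude C1q, and the class held 1136 C1qa UMIs (-SG) and 1173 C1qa UMIs (control). A macrophage with a Krt20 UMI and no Ptprc UMI would be counted there, and the part of such cells in this ratio was not tested. A single -SG NK cell held 13 UMIs, and 0 of 17 control NK cells held any.

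Cells outside the 5 classes held the rest. Cells with both C1q and Krt20 transcripts were positive in 11 of 68 cases (16.2%) in the -SG library and 1 of 33 (3.03%) in the control library. Ptprc-positive cells of no class were positive in 10 of 329 cells (-SG) and 10 of 486 cells (control), and cells without Ptprc and Krt20 in 6 of 1937 and 12 of 2789. The share ratios of these groups have intervals that include 1. Siglech, a marker of plasmacytoid dendritic cells, which are known for type I interferon, had 9 UMIs in -SG and 0 UMIs in control macrophages. In tumour cells it had 3 UMIs (-SG) and 0 UMIs (control), and it was at 0 in both T cell classes and in NK cells. Siglech was read only in the 5 classes, so whether such dendritic cells were among the cells of no class was not tested.

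Of the other interferons, Ifna4 had 240 UMIs in 50 cells of the -SG library and 32 UMIs in 10 cells of the control library. Of these cells, 17 and 3 also held Ifnb1, and 17 and 2 were macrophages. Ifna2 had 32 UMIs (-SG) and 3 UMIs (control), Ifna1 had 24 and 0, and no other Ifna gene passed 2 UMIs in either library. Ifng, the type II interferon made by lymphocytes, was at 273 CPM (-SG) and 247 CPM (control) in CD8 T cells. It was at 228 CPM (-SG) and 40.3 CPM (control) in CD4 T cells, at 184 and 33.5 CPM in NK cells, and under 1 CPM in macrophages and tumour cells of both libraries.

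Macrophages that held Ifnb1 also held more of a group of members than macrophages that did not. In the -SG library 10 of 31 measured members were at least 1.5-fold higher in the 79 positive cells, against 2.58% of all 5359 genes, and in the control library 9 of 33 in the 20 positive cells, against 7.33% of 5595 genes. Ifit1 was at 325 CPM in positive and 60.7 CPM in negative -SG macrophages, a ratio of 5.35 (4.61 to 6.21). In control macrophages it was at 148 and 53.9 CPM, a ratio of 2.74 (1.94 to 3.79). Ifit2 (383 and 79.8 CPM) and Rsad2 (617 and 152 CPM) were next to it in the -SG cells.

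Ifih1, Isg15 and Oasl1 were higher in the positive cells of both libraries. Ifih1 was at 541 CPM in positive and 166 CPM in negative -SG macrophages, and at 386 and 99.98 CPM in control macrophages. Isg15 had ratios of positive over negative cells of 3.15 (2.98 to 3.33) in the -SG and 2.82 (2.52 to 3.15) in the control library, and Oasl1 ratios of 2.26 and 2.59. Irf7, Trim30a, Xaf1 and Bst2 stayed within 1.5-fold in both libraries. Cxcl10, a chemokine gene that interferon induces, was at 1453 and 438 CPM in the -SG and 995 and 553 CPM in the control cells. Fibroblast markers moved with the same split, with Col1a1 at 92.6 CPM in positive and 5.2 CPM in negative -SG macrophages. In control macrophages Col1a1 was at 101 and 66.8 CPM, a ratio of 1.51 whose interval of 0.993 to 2.21 includes 1. Col3a1 was at 68.8 and 10.7 CPM in the -SG and 296 and 51.9 CPM in the control cells. The part of these markers in the split was not tested.

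**Figure D5:**
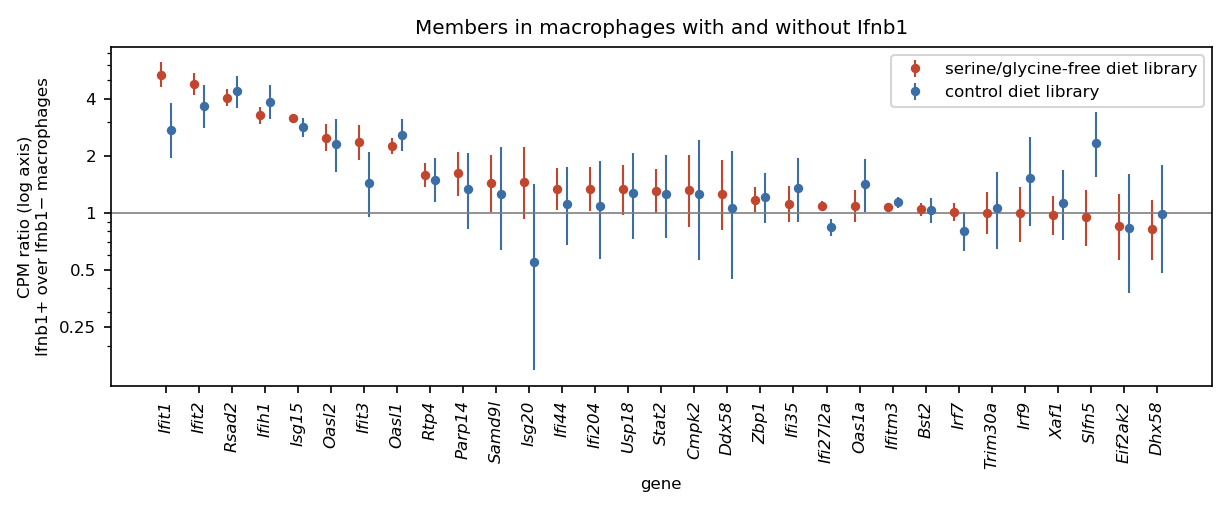
CPM ratio of Ifnb1-positive over Ifnb1-negative macrophages (log axis), with 1 point for the -SG and 1 for the control library and bars for 95% intervals of counting error. Only members measured in both libraries are shown, which leaves out Ifit3b, Oas2 and Oas3. Ifit1, Ifit2, Rsad2, Ifih1 and Isg15 lie above 2 in both libraries, while Bst2, Irf7 and Trim30a lie near 1.

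Between the diets, the 6 members higher in -SG macrophages were Ifih1, Rsad2, Oasl1, Ifit1, Ifit2 and Isg15. With the Ifnb1-positive cells left out, only Oasl1 (260 CPM in -SG and 163 CPM in control cells) and Ifih1 (166 and 99.98 CPM) were higher past 1.5-fold and 0 members lower, beside 2.12% and 1.34% of all genes. Ifit1 was then at 60.7 CPM (-SG) and 53.9 CPM (control), a ratio of 1.13 (0.973 to 1.31), and Rsad2 at 152 and 104 CPM, a ratio of 1.47 (1.33 to 1.62).

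Genes upstream of the members were read in the same sums. Of 5 measured receptor and kinase genes in CD8 T cells, 2 were lower and 0 higher (10.4% and 7.52% of all genes). The 2 lower genes were Ifnar2, a chain of the type I receptor, at 50.2 CPM (-SG) and 108 CPM (control), and Ifngr1, a chain of the interferon-gamma receptor, at 170 and 340 CPM. Of 6 measured genes on a list of transcription factors outside the members, 2 were lower and 2 higher in CD8 T cells. In tumour cells Ifngr1 was higher (33.0 and 24.5 CPM) and Ifnar2 was within 1.2-fold (44.2 and 42.9 CPM).

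Of the feedback genes outside the list, Socs1, an inhibitor of JAK kinases, was at 165 CPM (-SG) and 241 CPM (control) in CD8 T cells, within 1.5-fold, and at 68.5 and 49.8 CPM in tumour cells, past 1.2-fold. The DNA-sensing adaptor gene Tmem173 (STING) was at 51.8 CPM (-SG) and 78.2 CPM (control) in CD8 T cells, and within 1.2-fold in tumour cells at 26.1 and 29.6 CPM. In a further list of 42 interferon-stimulated genes, 21 of 30 measured in CD8 T cells were lower and 0 higher (10.4% and 7.52% of all genes). Among these, Slfn1, a Schlafen gene that restrains thymocyte growth in mouse, was at 42.8 CPM (-SG) and 148 CPM (control). In tumour cells 6 of 19 were higher and 1 lower (7.16% and 15.5% of all genes), and in macrophages 0 of 31 in either direction. In NK cells 7 of 22 were higher and 2 lower (16.8% and 11.8% of all genes), and in CD4 T cells 2 of 25 higher and 7 lower (12.9% and 16.5% of all genes).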

How the data were processed

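UMI counts of each gene in each cell, as deposited, were made by the authors with Cell Ranger, version 7.1.0 per the file headers and 2.2.2 per the submitters' processing notes, which also name build mm10. The deposited contig tables gave each cell's TCR beta chain. Groups came from the sample titles. The cell filter asked for 300 or more genes and no more than 20% of UMIs from mitochondrial genes. Doublets were sought with Scrublet in scanpy 1.11.5, and its thresholds of 0.595 and 0.601 in the -SG and control libraries did not separate any group of cells. UMIs were summed per library and class, scaled to CPM without 660 TCR and immunoglobulin genes, and compared as log2 ratios on CPM plus 5. Intervals at 95% are exact Poisson, Clopper-Pearson or conditional binomial intervals and cover counting error only; a count of 0 was taken to allow up to 3 counts. No test was possible with 1 library per diet. The sums and ratios were tested on simulated data, with changes planted only in genes of higher levels. That test did not cover the low counts on which many T and NK cell values rest. All members are named, with values for some of the lowest and highest ratios per class, for members that met the opposed rule and for each role. Tmem173, Socs1 and the other pathway genes come from fixed lists. The members and lists were chosen with earlier results of these data known. Alternatives covered cell filters, doublets, pseudocounts, scaling, cell weights, low-value filters, clones and class definitions, 7 of them added after seeing the data. Python 3.11.15, numpy 2.4.6, scipy 1.17.1 and pandas 2.3.3 were used.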

Additional observations from a re-analysis of the deposited data

Results flagged for a closer look

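For 10 members the -SG over control ratio lay below 0 past 1.5-fold in CD8 T cells and above 0 past 1.2-fold in tumour cells, with 1 library per diet in each class, and the difference was not tested. As the log2 ratio in CD8 T cells minus that in tumour cells, the difference was -3.28 for Ifit3, -2.51 for Usp18, -2.29 for Rtp4 and -2.06 for Isg20. It was -1.76 for Ifit1, -1.62 for Zbp1, -1.39 for Irf7, -1.23 for Isg15, -1.23 for Stat2 and -1.18 for Xaf1. In CD8 T cells with a TRB chain of their own, Ifit1 turned above 0, Zbp1 and Isg15 were within 1.5-fold, and the other 7 stayed lower past 1.5-fold. Over all genes measured in these 23 -SG and 44 control cells, 18% were lower and 19.2% higher. The -SG values of the 7 rest on 2 UMIs (Usp18) to 13 UMIs (Irf7 and Isg20). All 10 had been picked for a lower ratio in CD8 T cells that include these.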

How the results depend on the processing

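No paired analysis was possible because each diet had 1 library. The direction of the median in CD8 T cells, NK cells and tumour cells was the same under all settings run, and that in CD4 T cells turned in 1 setting; the macrophage median stayed within -0.06 and 0.08. With every cell weighted alike, the CD8 median was -1.21 with 1 member higher, the NK median 0.33 with 11 higher and 6 lower, 1 macrophage member was lower, and Oasl1 in CD4 T cells (-0.78) and Ifit3 in NK cells (-0.69), Rsad2 in NK cells (-0.91), Usp18 in NK cells (-0.0592) and Rtp4 in NK cells (-0.10) reversed. Among T cells without C1q and Krt20 UMIs, 1 CD8 member was higher, and the CD4 median was 0.41 with 4 lower and 9 higher; Ifit3 (0.20), Oasl2 (0.74), Eif2ak2 (0.46) and Parp14 (0.53) reversed in CD4 T cells. With a TRB chain of their own only, CD8 T cells had a median of -0.44 with 13 lower and 2 higher, and Ifit1 (0.70), Rsad2 (1.14) and Parp14 (0.15) reversed. With Pdcd1-positive CD8 T cells only, the median was -1.15 with 1 higher, and Ifi204 (0.34) reversed.

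The count of members lower in both T cell classes and higher in tumour cells, 1 as reported, was 0 with the strict cell filter, a pseudocount of 20, T cells without C1q and Krt20 UMIs, at least 3 Krt20 UMIs, haemoglobin-positive cells left out or 1.5-fold in tumour cells. It was 2 without doublet scores over 0.25, with centring on all genes or with unique TRB chains, 3 with a pseudocount of 1 or a denominator without mitochondrial, ribosomal and haemoglobin genes, 4 with every cell weighted alike, 5 with the 5 CPM filter and 6 with CD8 and CD4 cells summed. The count with CD8 T cells alone, 10 as reported, was 5 with a pseudocount of 20, 16 with the 5 CPM filter and 3 with 1.5-fold in tumour cells. The pseudocount of 20 also left 4 CD4 members lower and 0 NK members lower. NK members lower were likewise 0 with cells of more than 1 class or doublet scores over 0.25 left out and with the narrower denominator. CD8 members higher were 1 without doublet scores over 0.25, with the narrower denominator and with the 5 CPM filter, which also gave 1 lower macrophage member. Without Ifnb1-positive cells 2 macrophage members were higher. The cause of these changes was not tested.

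Over 975 values of single members, 813 kept within counting error, 149 moved further without changing sign and 13 reversed. These values, and the reversals named above, cover only members past the fold in the main results. Members within it were not counted. Of the 149, 112 were in tumour cells, where counting intervals are narrow. For Ifnb1-positive cells among macrophages the share ratio ranged from 4.09 to 4.61. CD4 and control NK values are limited by 32, 56 and 17 cells.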
